A study of Mus musculus with 12 samples.

Results

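The genes described here are the mouse zinc finger genes whose symbol is Zfp followed by a number and whose mean level over the 6 input libraries of the study was at least 2 FPKM (fragments scaled to transcript length and to the library total). Of 31723 genes in the expression table, 368 carried such a symbol. Zfp36, which is named like the others but encodes an mRNA-decay factor of another kind, was left out by name. Of the remaining 367 genes, 286 reached the level and are called numbered Zfp genes below, and 81 did not. The level chose the members and is no finding. The members nearest above the threshold were Zfp983, Zfp653, Zfp677, Zfp407 and Zfp791, with means of 2.12, 2.13, 2.18, 2.18 and 2.19 FPKM. The nearest below it were Zfp595, Zfp94, Zfp341, Zfp551 and Zfp969, with 1.98, 1.98, 1.98, 1.95 and 1.92 FPKM. The cHet mean alone was under 2 FPKM for 9 members, and the cKO mean alone for 4.

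Limb buds were taken from mouse embryos at E12.5. The cKO group carried a conditional knockout of Mettl14 with both alleles floxed (Mettl14 flox/flox). The control group, cHet, also carried 1 floxed allele beside 1 wild-type allele (Mettl14 wt/flox). The labels give no age other than E12.5 and no treatment besides genotype, do not name the Cre driver that deletes the floxed alleles, and do not give the number of embryos behind 1 replicate. Mettl14 encodes the RNA-binding subunit of the methyltransferase that writes N6-methyladenosine (m6A). Each genotype had 3 biological replicates, each sequenced once directly (input) and once after immunoprecipitation with an antibody against m6A (IP). Values per library were used for the 6 input libraries. The IP libraries enter only through the authors' peak lists, of which there is 1 per genotype.

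C2H2 zinc finger proteins bind DNA through arrays of short zinc-coordinating fingers, and they form the largest family of transcription factors in mammals. Many of them also carry a KRAB domain, which recruits the corepressor Trim28 and, through it, the histone methyltransferase Setdb1 to silence retroelements and imprinted loci. Their genes often lie in clusters that grew by repeated duplication, and the finger array is usually encoded by 1 long last exon. In mRNA, m6A is concentrated near stop codons and in long internal exons, and marked transcripts are often bound by YTH proteins that shorten their lifetime.

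The expression table also carries KEGG orthology entries, and 132 of the 286 members had the entry K09228, which KEGG gives to KRAB domain zinc finger proteins. The other 154 did not, and the entry is not complete, since Zfp57, whose protein has a KRAB domain, lacked it. The first transcript type listed was protein-coding for 244 members and another type for 42. The genes lay on 20 chromosomes, with 69 on chromosome 7, 38 on chromosome 17, 21 on chromosome 8 and 20 on chromosome 13. Levels were modest, with a median over members of 6.24 FPKM and a range of 2.12 to 63.2 FPKM, and 69 members reached 10 FPKM.

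The members' promoters are shown first, because a short sequence that the choice of members did not use was more frequent in them than in the promoters of all genes of that level. RefSeq promoter windows (GRCm38.p6, 250 bases before to 50 bases after the start) were found for 236 members. Exactly 1 window was found for 190 of these, which were the ones searched, and 50 members had none. The ZNF143 site, searched as ACTACANNT on both strands, occurred in 41 of the 190 windows (21.6%), against 6.73% of the 6593 windows of tested genes averaging at least 2 FPKM. ZNF143 is a zinc finger activator that binds close to transcription starts. Its mouse gene, Zfp143, is itself a member. In these windows the 9 letters of the site stand in capitals, on whichever strand they were found, so that a site on the other strand ends in TGTAGT, and each window ends before the RefSeq start of its gene.

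Zfp189, chr4:49521137-49521175, plus strand: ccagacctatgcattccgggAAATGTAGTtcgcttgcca
Zfp697, chr3:98382372-98382420, plus strand: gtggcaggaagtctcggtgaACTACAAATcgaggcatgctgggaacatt
Zfp334, chr2:165388346-165388394, minus strand: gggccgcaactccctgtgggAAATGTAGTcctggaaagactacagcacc
Zfp60, chr7:27731324-27731372, plus strand: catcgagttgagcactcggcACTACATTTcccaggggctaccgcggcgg
Zfp28, chr7:6383153-6383201, plus strand: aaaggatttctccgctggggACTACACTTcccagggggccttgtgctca
Zfp180, chr7:24081857-24081896, plus strand: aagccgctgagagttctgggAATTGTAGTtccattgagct
Zfp109, chr7:24237692-24237740, minus strand: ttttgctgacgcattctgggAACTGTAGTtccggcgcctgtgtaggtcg
Zfp790, chr7:29815951-29815999, plus strand: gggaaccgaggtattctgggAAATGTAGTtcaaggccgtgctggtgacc
Zfp93, chr7:24270329-24270377, plus strand: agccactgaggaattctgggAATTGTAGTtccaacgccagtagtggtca
Zfp84, chr7:29768512-29768551, plus strand: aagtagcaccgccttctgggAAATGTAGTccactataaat
Zfp358, chr8:3493093-3493137, plus strand: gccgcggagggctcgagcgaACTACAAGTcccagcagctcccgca

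The first 10 of these belong to members that were higher in cKO and the last, Zfp358, to a member that was not called. They do not reflect the calls of all 41 members with the site, of which 21 rose and 20 were not called. The windows are shown so that the site itself can be compared between genes. In most of the windows the site continues outward as CCCA, or as TGGG when read from the other strand. When CC had to follow the site, 36 of the 190 members kept it (18.9%), against 5.55% of all 6593 windows. Of the 41 members with the site, 28 (68.3%) carried the KRAB entry, and of the 149 without it 68 did (45.6%). The GC box (GGGCGG) was less common in members, at 46.8% against 69.1% of all windows. The median GC content of members' windows was 54.3%, against 61.7%, and their median number of CpG dinucleotides was 15, against 22. Shares of other motifs were closer together. The CCAAT box was present in 48.4% of members' windows and 40.6% of all, the ETS motif CCGGAAG in 22.6% and 21.1%, the YY1 motif AAGATGGCG in 4.21% and 4.1%, and the NRF1 motif GCGCATGCG in 5.79% and 4.37%. The CRE (TGACGTCA) stood in 1.58% of members' windows and 3.52% of all, and the BANP motif TCTCGCGAG in 1.05% and 1.88%. All were searched on both strands, and the CCAAT and GC boxes can overlap other motifs. These are matches of letters and not measured binding. Members of 1 cluster can have promoters that are copies of each other, so the windows are not independent counts.

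The input libraries of the 2 genotypes were compared to find which transcripts change when Mettl14 is deleted in the limb bud. Most numbered Zfp genes stood higher in cKO. Of the 286 members, 118 rose, 13 fell and 155 did not pass (limma on log2(FPKM + 1), two-sided, Benjamini-Hochberg adjusted over all 13575 tested genes, threshold 0.05). Among all tested genes 18.7% were called higher and 17.5% lower, and among the 11647 tested genes averaging at least 2 FPKM the shares were 19.7% and 18.3%. For members the shares were 41.3% and 4.55%. The median log2 change of members was 0.24, that of all tested genes -0.003, and 80.1% of members had a change above 0. Of the 155 members that did not pass, 31 had an unadjusted p under 0.05.

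**Figure D1:**
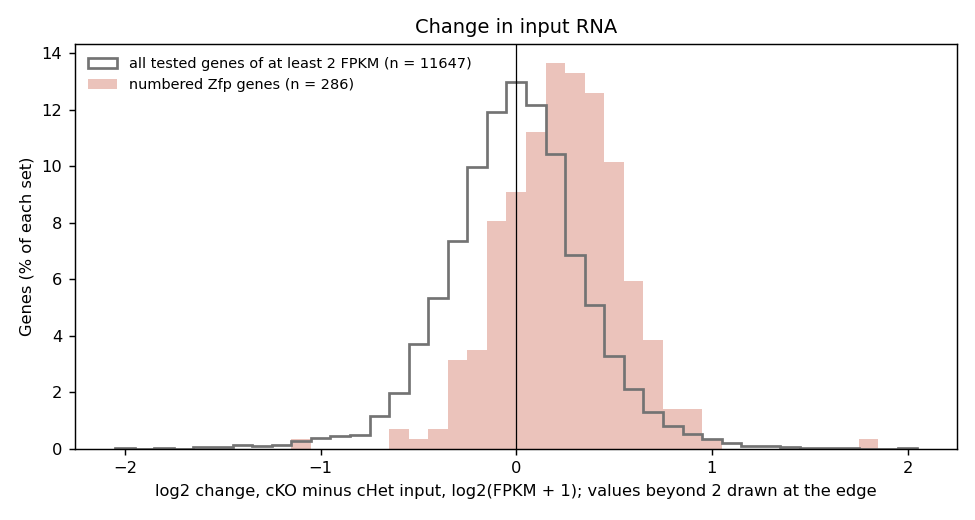
Log2 change of input RNA (cKO minus cHet, on the log2(FPKM + 1) scale) for the 286 numbered Zfp genes and for the 11647 tested genes of at least 2 FPKM, as a percentage of each set per bin of 0.1. The members' histogram lies to the right of the other, with medians of 0.24 and -0.001.

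The rises were small for most genes. The ratio of mean FPKM among the 118 that rose ran from 1.17 to 3.72 with a median of 1.44, and 67 of them had a log2 change under 0.5. The 13 that fell stood at 37.6% to 84.4% of their cHet mean. All 3 cKO values lay above all 3 cHet values for 143 members, of which 118 were the called rises. Such separation was seen in 26% of all tested genes and 26.9% of those with a mean of at least 2 FPKM. All 3 cKO values lay below all cHet values for 23 members, against 25.1% and 25.9% of genes. The share of rises was compared with genes of like level, between the 5th and 95th percentile of the members' means, of which 21.9% were called higher and 14.7% lower. When the members were split by level into 3 classes, 33 of 96, 37 of 94 and 48 of 96 rose, from the lowest class to the highest, and 6, 6 and 1 fell. Of the other tested genes in the same level ranges, 20%, 22.8% and 18.7% were called higher and 12%, 13.5% and 22.1% lower. Restricting the members to the 273 with at least 2 FPKM in both genotypes left 110 rises and 9 falls.

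Many of these calls depended on which library was left out. Without cHet replicate 2 the rises numbered 70 and the falls 4, and among all tested genes 11.2% were then higher and 9.16% lower. Without cKO replicate 2 they numbered 73 and 4, beside 11.8% and 10.5% of all genes, and without cKO replicate 3 they numbered 75 and 7, beside 12.2% and 13.3%. Calls were thus lost over all genes as well. The rises numbered 131 without cHet replicate 1, 102 without cHet replicate 3 and 110 without cKO replicate 1. Each of these fits leaves 2 replicates in 1 group, so a loss of calls can also come from the smaller group. The falls numbered 8 without cHet replicate 1 (14.7% of all genes) and 6 without cKO replicate 1 (14.8%). Each of the 118 members that rose kept a positive change in all 6 of these fits, and the median change ran from 0.21 to 0.29.

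The shift was present in each cKO library. Relative to the gene's mean over the cHet libraries, the median member stood at 0.17, 0.26 and 0.32 log2 units in cKO replicates 1, 2 and 3. In the cHet libraries it stood at 0.08, -0.02 and -0.07, so the genotypes did not overlap and cHet replicate 1 came closest to cKO. That library was the highest of its group for 169 members, and cKO replicate 3 was the highest of its group for 175. Summed over the 286 genes, the members made up 0.831%, 0.748% and 0.773% of all FPKM in cHet and 0.985%, 1.08% and 1.06% in cKO. The FPKM of all genes added up to 261691 to 275299 per cHet library, above the cKO libraries with 237288 to 255907. The depth of the libraries is not known from FPKM. In bulk tissue a difference in RNA per cell and a difference in the number of cells of a type cannot be told apart.

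Markers of some cell types moved with genotype. Summed over 8 limb mesenchyme markers, the level was 363.5 to 370.9 FPKM in cHet and 477.4 to 569.2 FPKM in cKO. Of these, 4 (Tbx5, Hoxa13, Hoxd13 and Twist1) were called higher and 0 lower, and Prrx1, Msx1 and Tbx4 did not pass. Hoxd13, the most abundant of the list, alone had means of 139.7 FPKM in cHet and 236.7 FPKM in cKO. Pitx1, the hindlimb factor of that list, was under the level tested. The 4 cartilage markers summed to 95.4 to 118.7 FPKM in cHet and 63.1 to 75.5 FPKM in cKO, with 3 called lower, and the 3 muscle markers to 75.6 to 88.8 FPKM and 48.8 to 66.2 FPKM, with 2 called lower. Of the other marker lists, epidermis had 1 of 4 called higher, neurons 1 of 3 higher, endothelium 1 of 4 lower and Schwann cells with neural crest 1 of 3 lower. For 4 erythroid genes and 4 macrophage and leukocyte genes 0 were called, and no marker was at 0 in all libraries. Their part in the members' shift was not tested. Mettl14 had cHet levels of 5.08, 4.54 and 4.39 FPKM and cKO levels of 2.67, 3.07 and 2.63 FPKM, and it fell to 59.8% of cHet (log2 change -0.58, adjusted p = 0.00289, limma).

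Other zinc finger families are set beside the numbered Zfp genes here. Among 29 Zbtb genes, which pair C2H2 fingers with a BTB domain, 22 were called higher, 0 lower and 7 did not pass by limma. Their median log2 change was 0.41, and 0 had a lower level at an unadjusted p under 0.05. Among 17 Zscan and Zkscan genes, whose proteins carry a SCAN domain, 13 were called higher, 0 lower and 4 did not pass, with a median of 0.46, and again 0 were lower at an unadjusted p under 0.05. Among 9 Klf genes, 4 were called higher, 2 lower and 3 did not pass, with a median of 0.13. Within the numbered Zfp genes the KRAB entry made little difference to the counts. Of the 132 genes with it, 55 rose and 6 fell (median 0.24), and of the 154 without it, 63 rose and 7 fell (median 0.25). The spread was narrower in the genes with the entry, whose log2 changes ran from -0.58 to 0.74 with an SD of 0.26, against -1.05 to 1.83 and 0.35 in the others. The largest changes in both directions were therefore in genes without the entry.

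Of the 41 members with the ZNF143 site, 21 rose, 0 fell (1 at an unadjusted p under 0.05, limma) and 20 did not pass, and the median log2 change was 0.30. Of the 149 without it, 56 rose, 8 fell and 85 did not pass, with a median of 0.21. No test was made between these 2 sets, which were formed after the members' changes were known. Many of the members with the site lie on chromosomes 7 and 13. Of all members, with or without the site, 36 of 69 rose on chromosome 7 and 6 of 20 on chromosome 13. The promoters of Zfp273 and Zfp85 on chromosome 13, both with the site, were 87.6% identical, so such genes are not independent cases. Zfp143, the mouse gene for the protein that binds the site, averaged 11.4 ± 1.22 FPKM over the cHet libraries and 10.9 ± 0.632 FPKM over the cKO libraries (SD, n = 3). The genotypes overlapped, and the 95% interval of its log2 change was -0.26 to 0.15 (adjusted p = 0.657, limma).

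Zfp292 (chromosome 4, 34803113 to 34882960) changed most. It encodes a large protein with many fingers that regulates transcription, and it had cHet levels of 16.7, 11.1 and 10.9 FPKM and cKO levels of 40.6, 48.7 and 54.8 FPKM. Every cKO library stood far above the highest cHet library. The means were 12.9 ± 3.29 and 48 ± 7.13 FPKM (SD, n = 3), a ratio of 3.72, and the log2 change was 1.83 (SE 0.18, adjusted p = 0.00115, limma).

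Zfp579 (chromosome 7) had cHet levels of 4.45, 4.93 and 6.64 FPKM and cKO levels of 11.6, 11.6 and 12 FPKM (log2 change 1.02, adjusted p = 0.00203, limma). Zfp451, whose human protein is a SUMO ligase, had cHet levels of 5.95, 5.08 and 4.74 FPKM and cKO levels of 10.7, 10.3 and 12 FPKM. Zfp646 had cHet levels of 5.81, 6.15 and 6.76 FPKM and cKO levels of 12.4, 12.3 and 12.7 FPKM. In all 3 genes the cKO libraries lay close together and stood clear of the cHet libraries. Zfp646 overlaps the opposite-strand gene Zfp668 by 608 bases, and Zfp668 was also called higher (log2 change 0.54, adjusted p = 0.00484, limma). Whether the authors' counting used strand is unknown from the sources used here, so the 2 values may not be independent of each other.

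Zfp62 had cHet levels of 19.9, 14.9 and 13.8 FPKM and cKO levels of 26.4, 30 and 34.1 FPKM, and rose 1.86-fold. Zfp606 had cHet levels of 8.54, 6.37 and 6.09 FPKM and cKO levels of 11.3, 13 and 14.5 FPKM, and rose 1.84-fold. Zfp882 had cHet levels of 5.6, 4.6 and 3.96 FPKM and cKO levels of 7.43, 8.58 and 10.1 FPKM. In these 3 genes cHet replicate 1 was the highest control and cKO replicate 3 the highest knockout, as for most members. Zfp882 shares 7720 bases on the same strand with Zfp617, which stood at 10.1 and 12.4 FPKM and was not called (adjusted p = 0.183, limma), so how reads were divided between them can affect both values.

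**Figure D2:**
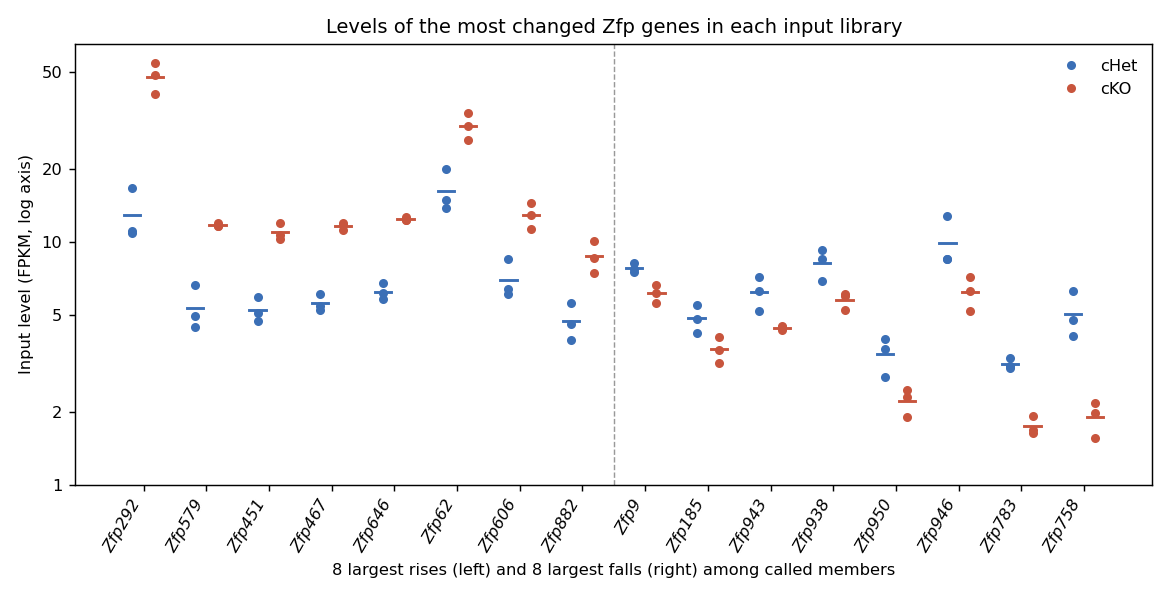
Input level (FPKM, log axis) of the 8 numbered Zfp genes with the largest called rises and the 8 with the largest called falls, in each of the 3 cHet and 3 cKO libraries. Points are libraries and bars are group means; Zfp292 moved from a mean of 12.9 to 48 FPKM and Zfp758 from 5.05 to 1.90 FPKM, and in none of the 16 genes do the groups overlap, which the choice of genes required.

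Of 7 members with roles in skeletal tissue or limb mesenchyme, 6 rose and 1 did not pass, and the median log2 change was 0.48. Of all members 41.3% rose, and of all tested genes averaging at least 2 FPKM 19.7% did. In the cKO samples 3 of the 4 cartilage markers were also called lower and 4 of the 8 limb mesenchyme markers higher, as given above. Zfp467, which in mice favours fat over bone formation in marrow stroma, had cHet levels of 5.46, 5.27 and 6.11 FPKM and cKO levels of 11.2, 11.8 and 11.9 FPKM (log2 change 0.93, SE 0.07, adjusted p = 5.96e-04, limma). Zfp462, a large chromatin-associated protein, had cHet levels of 8.66, 7.83 and 8.32 FPKM and cKO levels of 13.3, 14.1 and 16.2 FPKM (log2 change 0.74). Both genes separated the genotypes by more than the spread within either.

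Zfp703 and Zfp503 encode related corepressors of the NET family. Zfp703 had cHet levels of 6.7, 8.69 and 10.5 FPKM and cKO levels of 12.8, 15.2 and 14 FPKM (log2 change 0.65, adjusted p = 0.0149, limma; 0.0558 without cKO replicate 2). Zfp503 had cHet levels of 13.7, 13.5 and 14.9 FPKM and cKO levels of 16.4, 20.8 and 20.3 FPKM (log2 change 0.42, adjusted p = 0.0166, limma), and this call was lost without cHet replicate 2, cKO replicate 2 or cKO replicate 3. Zfp219, a partner of the cartilage factor Sox9, had cHet levels of 9.07, 9.69 and 11 FPKM and cKO levels of 13.5, 14.8 and 14.1 FPKM (log2 change 0.48, adjusted p = 0.00501, limma). Its end overlaps Arhgef40 on the opposite strand by 175 bases, and Arhgef40 was called higher too.

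Zfp423 and Zfp521 are close relatives that act in mesenchymal and preadipocyte precursors. Zfp423 had cHet levels of 9.61, 10.5 and 13.1 FPKM and cKO levels of 13.4, 16.1 and 15.3 FPKM (log2 change 0.41, adjusted p = 0.035, limma), with the highest cHet library just under the lowest cKO library. That call was lost under 6 of 13 alternatives, leaving out cHet replicate 1, cHet replicate 2, cKO replicate 2 or cKO replicate 3 among them. Zfp521 had cHet levels of 20, 19.6 and 21.1 FPKM and cKO levels of 20.9, 23 and 22.9 FPKM. The groups overlapped and the 95% interval of its log2 change was -0.02 to 0.28 (adjusted p = 0.143, limma).

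Among 7 genes known for silencing retroelements or keeping imprints, 1 (Zfp819) was under the level at a mean of 0.27 FPKM, 2 rose and 4 did not pass. For comparison, 41.3% of all members and 19.7% of all tested genes averaging at least 2 FPKM rose. Zfp445, which protects imprinted methylation together with Zfp57, had cHet levels of 29.4, 23.6 and 21.8 FPKM and cKO levels of 31.9, 35.3 and 38.5 FPKM (log2 change 0.49, adjusted p = 0.0206, limma). It lost its call without cHet replicate 2, cKO replicate 2 or cKO replicate 3. Zfp809, which silences retroviral DNA in mouse stem cells, had cHet levels of 4.25, 3.36 and 3.32 FPKM and cKO levels of 5.06, 5.03 and 5.15 FPKM (log2 change 0.40, adjusted p = 0.0145, limma; 0.0609 without cHet replicate 2).

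Zfp57 had cHet levels of 25.3, 25.6 and 27.1 FPKM and cKO levels of 26.3, 25.7 and 27.9 FPKM. Zfp568, a repressor of a placental Igf2 transcript, had cHet levels of 12, 10.9 and 9.14 FPKM and cKO levels of 10.6, 10.2 and 11.2 FPKM. Both overlapped between genotypes, with 95% intervals of the log2 change of -0.11 to 0.17 and -0.23 to 0.23, both of which end below the members' median change of 0.24. Zfp932, a repressor of endogenous retroviruses, stood at 8.45 ± 1.54 and 9.28 ± 1.80 FPKM (SD, n = 3). Zfp708 was listed at 0 in cHet replicate 3 beside 4.89 and 3.97 FPKM in the other cHet libraries and 3.49, 2.4 and 5.82 FPKM in cKO, and it had no peak in either list.

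The corepressor pathway that KRAB proteins use was read from a separate list of 25 genes that are not members. Of the 24 tested, 6 rose, 2 fell and 16 did not pass, and the median log2 change was 0.14. The share of rises is near the 19.7% called higher among all tested genes averaging at least 2 FPKM, of which 18.3% were lower. The gene Fam208a was not found under that symbol, and its newer symbol Tasor was. Setdb1, the histone H3K9 methyltransferase, had cHet levels of 16.8, 16.7 and 16.4 FPKM and cKO levels of 36.1, 37.7 and 39.1 FPKM (log2 change 1.13, SE 0.05, adjusted p = 3.10e-04, limma). The scaffold Trim28, by contrast, had cHet levels of 106.6, 117.1 and 125.6 FPKM and cKO levels of 99.1, 105.6 and 102 FPKM and did not pass (adjusted p = 0.0997, limma). The groups of Setdb1 lay far apart, whereas the highest cKO value of Trim28 lay just under its lowest cHet value.

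The other rises of this list were small. Tasor, a subunit of the HUSH silencing complex, rose by 0.58 on the log2 scale, Morc2a, which works with that complex, by 0.48, the histone chaperone gene Daxx by 0.42, the chromatin remodeller gene Chd4 by 0.38 and the maintenance DNA methyltransferase gene Dnmt1 by 0.24. The histone deacetylase genes Hdac1 and Hdac2 fell to 75.4% and 79.5% of cHet. The heterochromatin protein genes Cbx1, Cbx3 and Cbx5 had log2 changes of 0.06, 0.01 and -0.10 and did not pass.

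Of 15 members that regulate chromatin or transcription, 8 rose and 7 did not pass, and the median log2 change was 0.39. Zfp292 and Zfp451 are among them and are given above. The share of rises was 41.3% for all members and 19.7% for all tested genes averaging at least 2 FPKM. Zfp516, which in mice activates brown fat genes, had cHet levels of 8.19, 8.82 and 8.76 FPKM and cKO levels of 12.6, 13.6 and 14.6 FPKM (log2 change 0.61). Zfp217, a subunit of the CoREST corepressor that in mouse embryonic stem cells binds Mettl3, had cHet levels of 5.74, 5.5 and 5.89 FPKM and cKO levels of 7.98, 9.54 and 8.91 FPKM (log2 change 0.55, adjusted p = 0.00289, limma). In both genes all cKO libraries exceeded the cHet libraries by more than the spread within cHet.

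Zfp592, Zfp687 and Zfp532 encode related proteins of 1 zinc finger complex with Zmynd8. Zfp532 rose from 11.8 ± 0.586 to 16.2 ± 0.800 FPKM and Zfp592 from 6.4 ± 0.871 to 8.66 ± 0.0978 FPKM (SD, n = 3), the latter with an adjusted p of up to 0.0637 when a replicate was left out. Zfp687 stood at 7.45 ± 0.926 and 9.06 ± 0.368 FPKM and did not pass (adjusted p = 0.0646, limma). Zfp281, a pluripotency factor, rose from 14.7 ± 2.37 to 21.5 ± 1.90 FPKM (adjusted p = 0.0157, limma), and this call was lost with a replicate block and without cHet replicate 2, cKO replicate 2 or cKO replicate 3 (adjusted p up to 0.059). Zfp644, a partner of the methyltransferases G9a and GLP, rose from 8.90 ± 1.53 to 11.9 ± 1.24 FPKM, but its adjusted p was 0.0484 (limma) and the call was lost under 10 of 13 alternatives. The other 6 of this list, Zfp131, Zfp148, Zfp335, Zfp384, Zfp410 and Zfp827, had log2 changes of -0.02 to 0.28 and did not pass.

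Of 7 members whose products act on RNA, ribosomes or the spindle, 1 was called higher. This is near the 19.7% called higher among all tested genes averaging at least 2 FPKM, and 41.3% of all members rose. Zfp830, a splicing-associated protein, had cHet levels of 12.3, 11.5 and 12.1 FPKM and cKO levels of 17.4, 17 and 18 FPKM (log2 change 0.51, adjusted p = 0.00154, limma). Zfp207, a spindle assembly and kinetochore protein and the most abundant member, had cHet levels of 72.3, 67.5 and 58.7 FPKM and cKO levels of 60.1, 58.5 and 62.1 FPKM, so the groups overlapped. Zfp598, a ubiquitin ligase that senses collided ribosomes, stood at 11.6 ± 2.14 and 14 ± 0.354 FPKM and Zfp622, a ribosome assembly factor, at 3.90 ± 0.109 and 3.67 ± 0.180 FPKM (SD, n = 3). Zfp106, Zfp326 and Zfp638 had log2 changes of 0.13, 0.00 and 0.22.

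None of the 5 most abundant members passed. Besides Zfp207 they were Zfp422 (59.8 ± 4.45 and 56.2 ± 1.18 FPKM), Zfp146 (38.4 ± 4.44 and 42.7 ± 3.41 FPKM), Zfp266 (36.6 ± 6.16 and 47.4 ± 3.79 FPKM) and Zfp362 (31.2 ± 4.53 and 32.9 ± 1.06 FPKM; SD, n = 3). Zfp266 came closest, with 43.1, 35.8 and 30.9 FPKM in cHet against 44.9, 45.6 and 51.8 FPKM in cKO and an adjusted p of 0.0537 (limma). Its groups did not overlap, but cHet replicate 1 lay just below cKO replicate 1. Among uncalled members of at least 10 FPKM the smallest changes were those of Zfp706, Zfp326, Zfp568 and Zfp1, each within 0.03 of 0 on the log2 scale. Their 95% intervals reached at most 0.23 in either direction.

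The 13 falls were few and mostly modest. Zfp758 (chromosome 17, 22361453 to 22377281) had cHet levels of 6.29, 4.76 and 4.1 FPKM and cKO levels of 1.56, 2.17 and 1.97 FPKM, and fell by 1.05 on the log2 scale (SE 0.15, adjusted p = 0.00313, limma), to 37.6% of cHet. Zfp783 (chromosome 6) had cHet levels of 3.01, 3.09 and 3.34 FPKM and cKO levels of 1.63, 1.68 and 1.92 FPKM (log2 change -0.60, adjusted p = 0.00215, limma). These are the 2 falls with the clearest separation. Zfp783 overlaps its same-strand neighbour Zfp956 by 2524 bases, and Zfp956 was not called (log2 change -0.01).

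The next falls were those of Zfp946 (log2 change -0.58), Zfp950 (-0.46), Zfp938 (-0.44), Zfp943 (-0.40), Zfp185 (-0.34) and Zfp9 (-0.30). Zfp946, for example, had cHet levels of 12.8, 8.5 and 8.54 FPKM and cKO levels of 5.19, 6.27 and 7.21 FPKM. All 6 were lost under at least 3 of the 13 alternatives, and their adjusted p reached 0.0747 to 0.146. Zfp185 differs from the rest of the family, since its mouse protein is a LIM-domain actin-associated protein rather than a C2H2 factor.

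Neighbouring members were also looked at together. Members were joined into runs where neighbours lay no more than 500 kb apart, which gave 13 runs of at least 5 genes. The runs were examined after the members' values were known, so they are described without a test. The run from 21008903 to 23599487 on chromosome 17 held 20 members, of which 2 rose, 4 fell and 14 did not pass, and the median log2 change was 0.05. It held 4 of the 13 falls (Zfp983, Zfp943, Zfp758 and Zfp946), and the other 9 lay elsewhere. The 4 falls are 20% of its members, near the 17.5% of all tested genes that were called lower, while its 2 rises (10%) compare with 18.7%. The 8 consecutive members Zfp820, Zfp995, Zfp942, Zfp943, Zfp944, Zfp758, Zfp946 and Zfp945 had log2 changes of -0.28, -0.23, -0.34, -0.40, -0.22, -1.05, -0.58 and -0.11. Directly before them Zfp229 rose from 4.38 ± 0.929 to 7.89 ± 1.85 FPKM (SD, n = 3), with a log2 change of 0.72 (adjusted p = 0.0234, limma). Of the 11 other tested genes within the run, 1 was called, higher, and their median was -0.13.

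**Figure D3:**
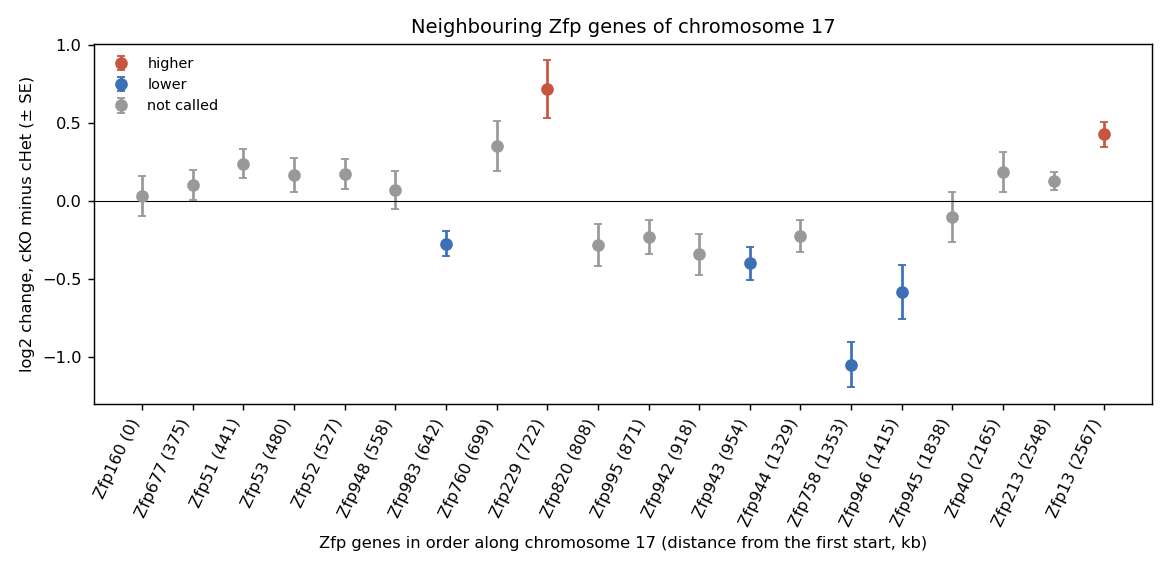
Log2 change of input RNA (cKO minus cHet, with its standard error) for the 20 numbered Zfp genes of the chromosome 17 run in their order along the chromosome, with the distance of each gene from the first in kb. The 8 consecutive genes from Zfp820 to Zfp945 lie below 0, 3 of them called lower, and Zfp229 beside them was called higher.

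Within that run lie 2 pairs of members that start head to head. They were the only such pairs within 1 kb among members whose coordinates do not overlap. Opposite-strand members that overlap, such as Zfp646 and Zfp668, were not searched for. Zfp942 and Zfp943 are separated by 87 bases, and Zfp944 and Zfp758 by 52 bases, in the authors' coordinates. The promoters of Zfp758 and Zfp943 are near copies, with 242 of the 250 bases before the start identical in an alignment of the 2, and those of Zfp942 and Zfp944 were 99.6% identical over 275 aligned columns. The 60 bases before the RefSeq start of Zfp758 (chr17:22361403-22361462, plus strand, GRCm38.p6) are shown because the same letters stand before Zfp943 (chr17:21962492-21962551), and both genes fell. The RefSeq start lies downstream of the start in the authors' coordinates, so the last of these bases fall within the gene as the authors placed it.

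Zfp758 and Zfp943: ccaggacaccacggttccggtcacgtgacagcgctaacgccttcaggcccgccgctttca

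The genes behind these like promoters differed in size of change. Zfp758 fell by 1.05 and Zfp943 dropped by 0.40 on the log2 scale. Zfp943 had cHet levels of 7.21, 6.26 and 5.2 FPKM and cKO levels of 4.51, 4.33 and 4.46 FPKM. On the other side, Zfp942 stood at 7.11 ± 1.28 and 5.37 ± 0.742 FPKM and Zfp944 at 8.88 ± 1.24 and 7.43 ± 0.568 FPKM (SD, n = 3), and neither passed. How reads shared between near-identical copies were counted is unknown from the sources used here, so values of such neighbours are uncertain.

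Alike promoters elsewhere did not always go with alike changes. Among 17955 pairs of members with 1 window each, 10 pairs aligned closely, all within 1 chromosome. Zfp970 and Zfp971 on chromosome 2 were 97.6% identical and had log2 changes of 0.56 and 0.63, the second of which passed. Zfp931, 97% identical to Zfp971, had a change of -0.20 and did not pass. Zfp442 rose from 1.78 ± 0.535 to 3.61 ± 0.868 FPKM (SD, n = 3), while Zfp937, 93.7% identical to it, had a change of 0.16.

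In the other 12 runs, 43 of 93 members rose, 3 fell and 47 did not pass, and in 6 of these runs more than 50% of the members rose. Among all tested genes 18.7% were called higher and 17.5% lower. In the run at 27731389 to 28014115 on chromosome 7, all 5 members (Zfp60, Zfp626, Zfp59, Zfp974 and Zfp850) rose, by 0.30 to 0.60 on the log2 scale. Its 3 other tested genes also included 2 called higher and 0 lower, with a median of 0.44, so the rise there was not particular to the members. Zfp60, the first of them, had cHet levels of 9.3, 7.64 and 7.55 FPKM and cKO levels of 10.9, 12.3 and 12.9 FPKM, and its promoter carries the ZNF143 site shown above. At 127233061 to 127885996 on the same chromosome, 6 of 10 rose and 1 fell, while 7 of the 24 other tested genes were called higher and 3 lower. At 47835661 to 48623227 on chromosome 6, 6 of 9 rose and 1, Zfp783, fell. The 8 other tested genes there held 1 rise and 1 fall. The largest chromosome 7 run (29768552 to 30169750) was mixed, with 5 of 14 higher, the other 9 not called and a median of 0.17. Over whole chromosomes, 36 of the 69 members on chromosome 7 rose and 1 fell, against 6 and 4 of the 38 on chromosome 17. Of all members, 38 overlapped another tested gene in coordinates. The 248 that did not included 104 rises and 10 falls.

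Nearly every numbered Zfp gene carried m6A peaks in the authors' lists. Of the 286 members, 282 had a peak in the cHet list and 283 in the cKO list, against 90.8% and 92% of all genes averaging at least 2 FPKM. The members without a cHet peak were Zfp58, Zfp617, Zfp708 and Zfp963. Members held 766 peaks in the cHet list and 925 in the cKO list. The authors' log2 enrichment of IP over input had a median of 2.11 over the members' cHet peaks and 1.70 over their cKO peaks, against 1.75 and 1.52 over the peaks of all genes of that level. Each peak's enrichment is the authors' own value for a list with no replicate, so differences between the lists have no replicate check and are not tested. A peak's coordinates can span introns, and 29.1% of the members' cHet peaks span over 5 kb.

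Peaks at stop codons were the strongest. Of the members' cHet peaks 25.6% were annotated at a stop codon, against 19.6% over all genes, and these had a median log2 enrichment of 3.28 in the cHet list and 2.17 in the cKO list. For all genes the stop codon medians were 2.61 and 1.97. Peaks in the 3' UTR were the most numerous, at 36.3% of the members' cHet peaks, with medians of 1.64 and 1.49. At the 5' UTR the medians were 1.6 and 1.48 and at the start codon 2.01 and 1.71. For peaks annotated only as exonic they were 2.1 and 1.6, and in introns 1.6 and 1.38. The exonic label does not say which exon of the gene is meant. The lists were nearest to each other at the 5' UTR and in the 3' UTR.

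Each cHet peak was then set against the cKO peaks of the same gene that it overlaps by at least 1 base, and where it overlapped several the one with the longest overlap was taken. Of the 766 cHet peaks of members, 707 overlapped a cKO peak (92.3%), against 90.7% for all genes. The 59 without one were weak, with a median log2 enrichment of 1.24. Across the 707 pairs the cKO enrichment was lower in 503 (71.1%), against 57% for all genes, and lower by at least 1 log2 unit in 224 (31.7%), against 12.9%. The median difference was -0.46 for members and -0.08 for all genes. It was larger where a cHet peak was met by several shorter cKO peaks. For the 588 cHet peaks of members that overlapped exactly 1 cKO peak the median was -0.28, and for the 119 that overlapped 2 or more it was -1.15.

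The difference lay mainly at stop codons. There 186 of 195 pairs were lower in the cKO list, 119 of them by at least 1 log2 unit, and the median difference was -1.10, against -0.64 over all genes. With exactly 1 overlapping cKO peak it was -1.05 over 140 pairs, against -0.52 over all genes. In 46 of the 195 pairs the cKO peak with the longest overlap was annotated elsewhere than at the stop codon. Set instead against an overlapping cKO peak that was itself annotated at the stop codon, which 178 cHet peaks had, 171 were lower and the median was -1.09, against -0.61 over all genes. For peaks annotated only as exonic 79 of 106 pairs were lower (median -0.46, against 0.03 for all genes). In the 3' UTR 146 of 245 were lower (-0.16), at the start codon 41 of 64 (-0.19) and in introns 16 of 26 (-0.14). At the 5' UTR 31 of 67 were lower and the median was 0.02. Zfp62, for example, had a stop codon peak of 3.76 in the cHet list and 2.57 in the cKO list over the same coordinates (chromosome 11, 49214754 to 49218816), while its 5' UTR peak was listed at 1.26 and 2.22. Zfp292 had a stop codon peak of 3.65 in the cHet list (chromosome 4, 34804338 to 34816292) and 2.49 in the cKO list. The cKO peak was shorter, and 2 separate exonic peaks of 1.26 and 1.98 lay upstream of it in the gene's direction.

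**Figure D4:**
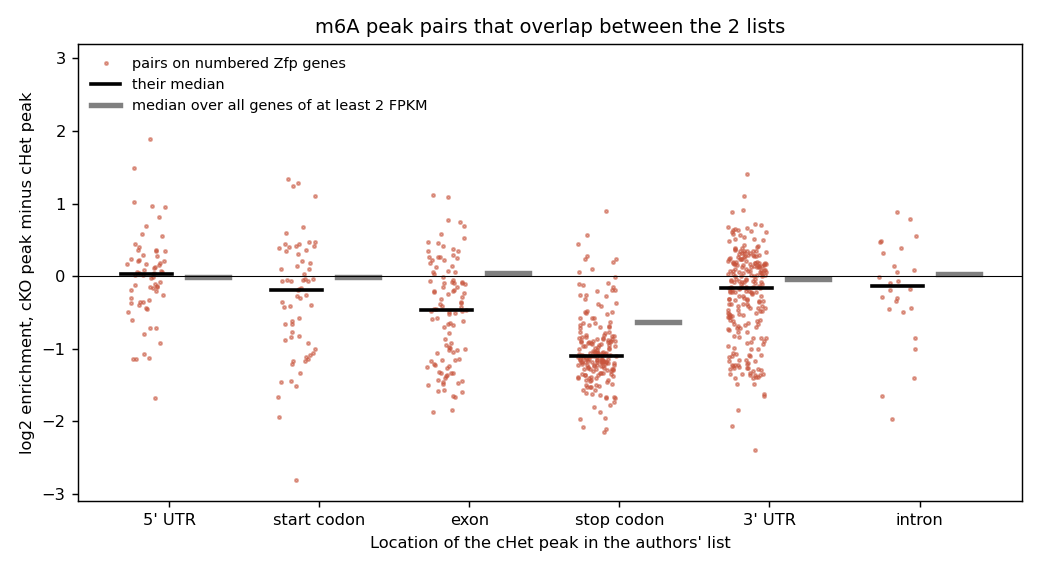
Difference in the authors' log2 enrichment (cKO peak minus cHet peak) for overlapping peak pairs on numbered Zfp genes, by location of the cHet peak, with the members' median in black and the median over all genes of at least 2 FPKM in grey. The stop codon pairs have a median of -1.10, against -0.64 over all genes, and the 5' UTR pairs one of 0.02.

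A few pairs annotated at the stop codon in both lists went the other way, among them Zfp219, from 2.28 to 2.72, and Zfp638, from 1.98 to 2.26. Both started from peaks below the median of their class. Large drops between single stop codon peaks were those of Zfp623 (3.74 to 1.77) and Zfp707 (4 to 2.13). The stop codon peak of Zfp146 was listed at 3.19 and 2.05 and that of Zfp217 at 3.34 and 2.24. In both genes the cKO list divides the stretch of the cHet peak, and the longest piece is a weaker one, at 1.04 in the 5' UTR of Zfp146 and at 1.25 at the start codon of Zfp217. The input level of Zfp146 was not called different, and that of Zfp217 rose. The strongest peak of each member was also taken in each list, and it can lie at another position in the other list. Its median over members was 3.32 in the cHet list and 2.29 in the cKO list. It was lower in the cKO list for 265 of 282 members (94%). For all genes of at least 2 FPKM with a peak in both lists the share was 68%. Of members with a higher strongest peak in the cKO list, Zfp507 had the largest difference, from 3.24 to 4.23. These are different peaks of its 5' UTR. The cHet peak of 3.24 overlapped a cKO peak of 3.29, and the cKO peak of 4.23 overlapped a cHet peak of 2.33.

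Across members the number of peaks had little relation to the size of a gene's change. The members with the most cHet peaks were Zfp532 and Zfp846 with 10 each, Zfp652 and Zfp638 with 9 each and Zfp445 and Zfp219 with 8 each. All of these but Zfp638 were called higher. Zfp652 rose from 5.37 ± 0.034 to 7.04 ± 0.381 FPKM and Zfp846 from 2.52 ± 0.205 to 3.36 ± 0.144 FPKM (SD, n = 3), the latter call lost with a replicate block and without cHet replicate 2 or cKO replicate 3 (adjusted p up to 0.0698, limma). Zfp638, at 12.7 ± 2.62 and 14.8 ± 1.75 FPKM, did not pass. Zfp292, with the largest change, had 2 cHet peaks. Across the 282 members with a peak, Spearman's rho between the number of cHet peaks and the log2 change was 0.07. Over all genes of at least 2 FPKM with a peak in both lists it was 0.20.

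The strongest control peak was related to the change in level. Members whose strongest cHet peak was under 2 log2 units numbered 16, of which 0 rose by limma (2 at an unadjusted p under 0.05) and 1 fell. Of the 49 with a strongest peak of 2 to 3, 11 rose and 6 fell, and of the 217 with one of 3 or more, 107 rose (49.3%) and 6 fell (2.76%). The same classes over all genes of at least 2 FPKM held 6.86%, 17.2% and 38% rises and 28.7%, 16.9% and 9.99% falls. Among members the falls were 6.25%, 12.2% and 2.76%, below the share of all genes in each class. Members were concentrated in the top class, which held 75.9% of them and 28.8% of all genes, and within that class 49.3% of members rose beside 38% of all genes. Spearman's rho across the 282 members was 0.22 between the strongest cHet peak and the log2 change, and -0.36 between the difference of the strongest peaks and that change. Over all genes of that level the values were 0.37 and -0.43. These are descriptions across genes of 1 pair of lists. The input libraries stand in the denominator of the enrichment and also give the change, so the measures are not independent. A higher cKO input lowers the cKO enrichment where the IP does not rise with it. Values per IP library were not available to check this.

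**Figure D5:**
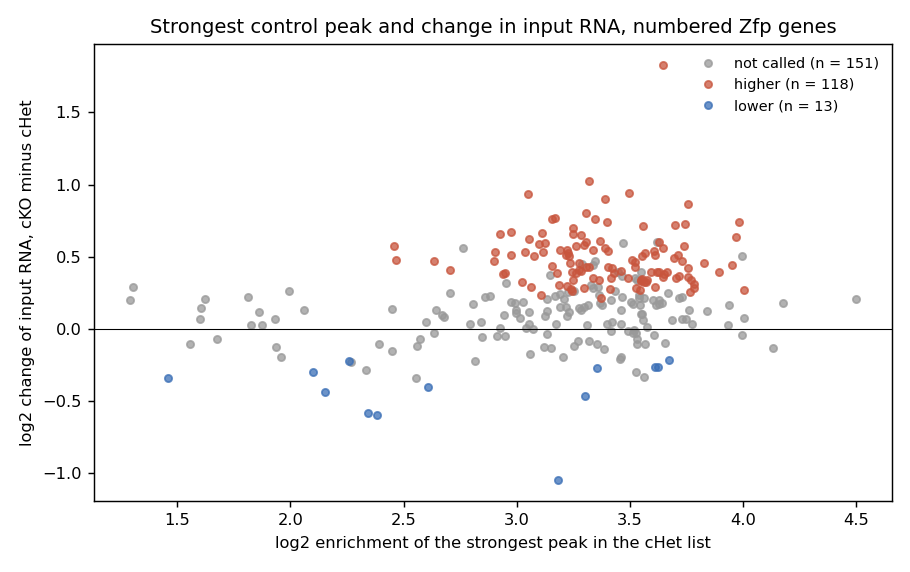
Log2 change of input RNA (cKO minus cHet) against the log2 enrichment of the strongest cHet peak for the 282 numbered Zfp genes with a cHet peak, coloured by limma call. The 118 called rises all have a strongest peak of at least 2.46, and the 13 called falls lie between 1.46 and 3.67.

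Grouped by call, the members that rose had a median strongest peak of 3.38 in the cHet list and 2.25 in the cKO list. Those that fell had 2.61 and 2.26, and those not called had 3.28 and 2.32. Members that were not called thus had cHet peaks nearly as strong as those that rose. Zfp422, with input levels of 59.8 and 56.2 FPKM, is an example. Its strongest peak was 3.32 in the cHet list, in the 3' UTR, and 2.33 in the cKO list, at the stop codon. The cHet peak of the 3' UTR overlapped a cKO peak of 1.83, and the stop codon peak was 2.59 in the cHet list. Zfp758, the largest fall, had 1 peak in each list, annotated at the start codon and spanning nearly the whole gene, at 3.18 and 3.11, which is 1 of the smaller differences between the lists. Zfp783 had peaks annotated in noncoding exons, the strongest at 2.38 in the cHet list and, at another position, 2.89 in the cKO list. The position of that cKO peak lies within a cHet peak of 3.52 that the authors' list assigns to the neighbour Zfp956, so the 2 values of Zfp783 do not compare the same stretch.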

How the data were processed

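The authors deposited FPKM values per gene for the 6 input libraries, and 1 list of m6A peaks per genotype with a log2 enrichment of IP over input and its p-value, per the file headers. Reads were handled with fastp and HISAT2 on mm10, per the submitters' processing notes. The expression program, its treatment of strand and shared reads, the peak caller and the way replicates were combined are unknown from the sources used here. Genes averaging at least 1 FPKM were tested with limma 3.58.1 (R 4.3.3; lmFit and eBayes with a trend) on log2(FPKM + 1), which understates changes of low genes. Adjusted p under 0.05 was called. The fit was tested on simulated data. Peak starts are printed 1-based. Promoters come from RefSeq (GRCm38.p6).

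Members, gene lists and motifs were chosen with earlier results of these data known. Genes named are the 8 largest rises and 8 largest falls without overlap of genotypes, the 5 highest means, the 5 with most cHet peaks, the 4 smallest changes at 10 FPKM or more, the genes nearest the threshold and the role lists. Others were chosen after their values were seen. The planned protein features could not be computed, and the KEGG entry in the authors' table stands in for them. Labels call replicates biological, so p-values measure the spread between these samples. All 6 columns of per-sample values were used, with 0 left out. Alternatives covered the pseudocount, filters, scaling, a replicate block and leaving out each library.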

Additional observations from a re-analysis of the deposited data

How the results depend on the processing

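The counts of rises and falls depended on which library was left out. When each library was left out in turn, the members higher ran from 70 to 131, the members lower from 4 to 12 and the median log2 change from 0.21 to 0.29. Without the filter on low values, with 31723 genes tested, 82 members were higher and 6 lower, beside 6.7% and 6.85% of all genes. With a member level of at least 5 FPKM, which leaves 172 members, 73 were higher and 7 lower. The authors' peaks with a log2 enrichment of at least 1 had a median of 1.76 in the cKO list. For cHet peaks that overlap exactly 1 cKO peak, an alternative chosen after seeing the data, the median pair difference was -0.28. For stop codon pairs, where the cKO peak had to be annotated at the stop codon too, also chosen after seeing the data, the median was -1.09, beside -1.10. Under the other scalings (median ratio and quantile), a pseudocount of 0.1, a filter of 0.5 FPKM and no trend, rises numbered 111 to 130 and falls 12 to 19. A replicate block was fitted as well. Whether equal numbers pair the samples is not given by the labels. The correlations of same-numbered deviations were -0.08, 0.04 and -0.20 for replicates 1, 2 and 3, and those of the other combinations ran from -0.25 to 0.29. The deviations are centred within groups of 3, so these values cannot decide whether the samples are paired. With that replicate block 72 members were higher and 2 lower (11.5% and 9.76% of all genes), all 72 among the 118 rises. Of 56 members named by rule, 32 were called, and 17 of these kept the call under all 13 alternatives run, while 15 lost it under at least 1. Of the 24 not called, 11 passed under at least 1 alternative, and no called change turned its sign. FPKM values carry no depth, so counting error per gene was not separated from the spread between replicates.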
